A study of Homo sapiens with 24 samples.

Results

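The data described here compare SH-SY5Y cells labelled OE, read here as overexpression of the microRNA miR-125b, with scrambled control cells, both without retinoic acid (RA) and on day 4. SH-SY5Y is a human neuroblastoma line that is used as a model of neuronal differentiation. The comparison was chosen by the sample titles alone: 3 arrays of the OE group and 3 of the scrambled group (SCR), 6 of the 24 Illumina expression arrays of the study, with all probes. The other 18 arrays, all of day 2 cells, held OE and scrambled cells without RA, and scrambled, OE, knockdown (KD) and OE+KD cells with RA, 3 arrays in each group. Every group came from the same cell line, and the titles and source names give no other genetic change or agent.

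The source names write DP where the titles write OE, and no label explains DP. The labels' growth protocol is about a different experiment, with shRNA against another gene and puromycin selection. The way miR-125b was raised, the cells that took it up and the separation of the cultures are therefore not known here. miR-125b itself was not read here, and the label OE is therefore unchecked. The p-values rest on the spread of 3 arrays a group, and that spread may be technical.

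A microRNA is a short RNA that guides the Argonaute protein complex to partly complementary messenger RNAs, whose translation and stability it lowers. Pairing of the microRNA's seed, the bases near its 5′ end, with a site in the messenger RNA carries most of the target recognition. miR-125b is abundant in the nervous system and is a relative of lin-4, the microRNA that times larval development in the worm Caenorhabditis elegans. Direct targets are thus a part of the RNAs that can fall when it is raised, and other RNAs can rise or fall as a consequence of those.

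The mature sequence of miR-125b is shown because it is the molecule varied in the comparison. Beside it are the microRNAs found here with the same seed and the opposite arms of its hairpins. The capitals mark bases 2 to 8, the seed, read 5′ to 3′. The sequences come from RefSeq on build GRCh38.p14.
hsa-miR-125b-5p: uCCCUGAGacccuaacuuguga
hsa-miR-125a-5p: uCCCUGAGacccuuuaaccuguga
hsa-miR-4319: uCCCUGAGcaaagccac
hsa-miR-125b-1-3p: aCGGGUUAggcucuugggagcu
hsa-miR-125b-2-3p: uCACAAGUcaggcucuugggac
Human cells carry hsa-miR-125b-5p at 2 loci with the same mature sequence. MIR125B1 holds it at chr11:122099809-122099830 on the minus strand, and MIR125B2 at chr21:16590253-16590274 on the plus strand. The table holds 2370 mature names, and 3 names were found to share the seed CCCUGAG, whose reverse complement in a messenger RNA reads CUCAGGG. The search for the seed did not cover every name, so others may share it. The opposite arms, named 3p, have other seeds. Which arm the OE cells received is not given in the sources used here.

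Each array gave 1 linear intensity per probe for 20589 probes. Mean intensity was between 780.9 and 1110.7 on the OE arrays of day 4 and between 770.8 and 999.3 on their scrambled controls, within the 617.8 to 1134.2 of all 24 arrays. Between 15.2% and 17.6% of the values on these 6 arrays lay below 0, which a linear intensity reaches only after a background is subtracted. The replicates correlated with r of 0.990 to 0.994 among the OE arrays and 0.995 to 0.997 among the scrambled arrays, across the 10691 probes tested. Probes deviated from their group mean with an SD of 0.112 to 0.144 log2 on the OE arrays of day 4, against 0.080 to 0.098 on the scrambled arrays of day 4 and 0.086 to 0.090 on the OE arrays of day 2. The OE cells of day 4 were thus the more variable group of the comparison. The probes carry Illumina IDs that the files and reference tables do not pair with genes, so no gene, pathway or predicted target is named, and neuronal, glial or other markers could not be used to check the cell line. In RNA from whole cultures, a change in part of the cells and a change in each cell cannot be told apart.

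The comparison asks what OE changed after the longer of the culture times. On day 4 the OE cells differed from the scrambled cells at 5504 of the 10691 probes tested (51.5%), with 2801 higher (26.2%) and 2703 lower (25.3%). Calls are probes whose limma adjusted p was under 0.05 in 1 linear model over all 24 arrays. Most of the changes were small. Called probes had a median size of 0.46 log2, the middle 50% of all tested probes lay between -0.25 and 0.26 log2, and the 1st and 99th percentiles lay at -1.21 and 1.09 log2. On 6315 probes (59.1%) the 3 OE arrays did not overlap the 3 scrambled arrays, with OE the higher on 3251 (30.4%) and the lower on 3064 (28.7%). With median scaling in place of quantile normalization the median of all tested probes moved to 0.13 log2 and rises made up 68.9% of the calls, against 50.9% with quantile normalization. The direction of small changes is thus relative to the scaling.

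Asking for more than a nonzero change left far fewer probes. Tested against a change of 1.5-fold (limma's treat), 484 probes passed (4.53%), 213 higher (1.99%) and 271 lower (2.53%). Among the probes called by the first test, 797 rose and 947 fell by at least 1.5-fold, 151 rose (1.41%) and 224 fell (2.10%) by at least 2-fold, 23 rose and 29 fell by at least 3-fold, and 8 rose and 8 fell by at least 4-fold. Beyond 8-fold there were 3 rises and 0 falls. The lack of such falls depends on the background correction, since without it ILMN_16109 changed by -3.23 log2. The excess of falls at 2-fold turned with the scaling, to 280 rises and 162 falls with median scaling. Both counts also grew to 411 rises and 551 falls without background correction and to 392 and 637 in the authors' normalized intensities, and both fell with the stricter filter on dim probes, to 90 and 144.

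The calls came from the whole range of intensities. With the tested probes split into 4 equal classes by their mean level on the 6 arrays, the share called was 48.1% in the dimmest, 52.6% and 55.2% in the middle classes and 50.1% in the brightest. Changes of at least 2-fold were found in each of the 4, from 33 rises and 47 falls in the dimmest to 28 rises and 46 falls in the brightest. The median change stayed between 0.00 and 0.02 log2 in all 4.

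**Figure D1:**
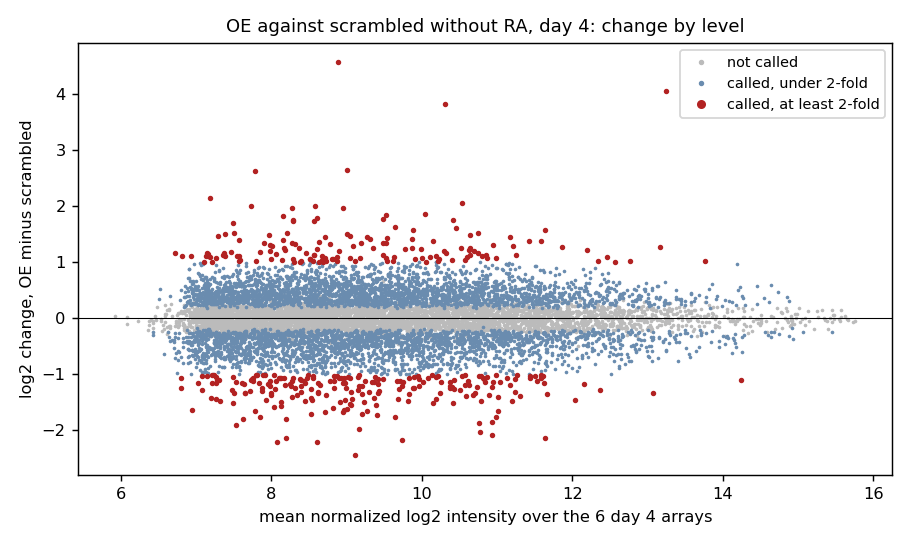
Change of each tested probe on day 4 (OE minus scrambled, log2, vertical axis) against its mean normalized log2 intensity over the 6 day 4 arrays (horizontal axis). Grey points were not called, blue points were called under 2-fold and red points were called at 2-fold or more; 3 rises stand above 3 log2 and no fall passes -2.44 log2.

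One probe went from below the array median to above its 75th percentile. ILMN_13364 had scanner intensities of 24.1, 18.7 and 19.1 on the scrambled arrays of day 4 and of 2199.1, 2844.8 and 2759.2 on the OE arrays. The median intensity of these arrays was 45.7 to 70.2, so the probe lay under the median of every control array and at the 91.1st percentile of the OE arrays. Its normalized level rose from 6.60 ± 0.10 to 11.17 ± 0.10 log2 (SD, n = 3 per group), a change of 4.57 log2 (SE 0.111, 23.7-fold, limma adjusted p = 1.35e-20). The size of this rise depends on how the dim control values were treated: it was 6.70 log2 without background correction and 6.59 in the authors' normalized intensities, and the authors' deposited table gives 6.62. No probe made the opposite passage, from above the 75th percentile in controls to the median or below in OE cells. Across the median itself the numbers were close, with 155 probes passing from at or below it to above it and 152 the other way.

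ILMN_6588 was already bright in control cells. Its scanner intensities were 2015.2, 2107.6 and 2845.3 on the scrambled arrays and 34124.1, 46706.9 and 48104.6 on the OE arrays. It stood at the 99.9th percentile of the OE arrays, whose largest intensities were 51757.0 to 63090.2. The normalized level rose from 11.22 ± 0.06 to 15.27 ± 0.10 log2 (SD, n = 3 per group), by 4.05 log2 (SE 0.086, 16.6-fold, limma adjusted p = 9.05e-22). Between arrays of the same replicate number the difference was 4.00, 4.08 and 4.07 log2, so the groups were far apart in each pair.

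ILMN_21370 had the largest fall under the processing used here, though not in every alternative. It had scanner intensities of 1171.7, 1053.9 and 1435.0 on the scrambled arrays and 132.2, 215.8 and 177.4 on the OE arrays. Its normalized level went from 10.33 ± 0.08 to 7.89 ± 0.06 log2 (SD, n = 3 per group), and fell by 2.44 on the log2 scale (SE 0.087, 5.43-fold lower, limma adjusted p = 5.21e-17). The OE arrays lay close together and well under the controls. In the authors' normalized intensities the change was -3.08 log2, against -3.11 for ILMN_16109 and -3.09 for ILMN_21261, and without background correction it was -2.91 against -3.23 for ILMN_16109. By replicate number the difference was -2.53, -2.30 and -2.49 log2. The probe passed from the 84.9th to the 60.1st percentile of the arrays.

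ILMN_21261 came second among the falls under the same processing. It gave 659.6, 731.3 and 894.0 on the scrambled arrays and 62.4, 121.5 and 159.9 on the OE arrays. The normalized level went from 9.72 ± 0.05 to 7.501 ± 0.22 log2 (SD, n = 3 per group), and fell by 2.21 on the log2 scale (SE 0.097, 4.64-fold lower, limma adjusted p = 3.10e-15). The 3 OE arrays were spread wider than the controls but did not meet them. The change was -2.87 log2 without background correction and -3.09 in the authors' normalized intensities. The next largest changes were 3.83 log2 upward and -2.21 log2 downward, and the 8 largest falls lay within 2.02 to 2.44 log2, while the 8 largest rises spanned 2.00 to 4.57.

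**Figure D2:**
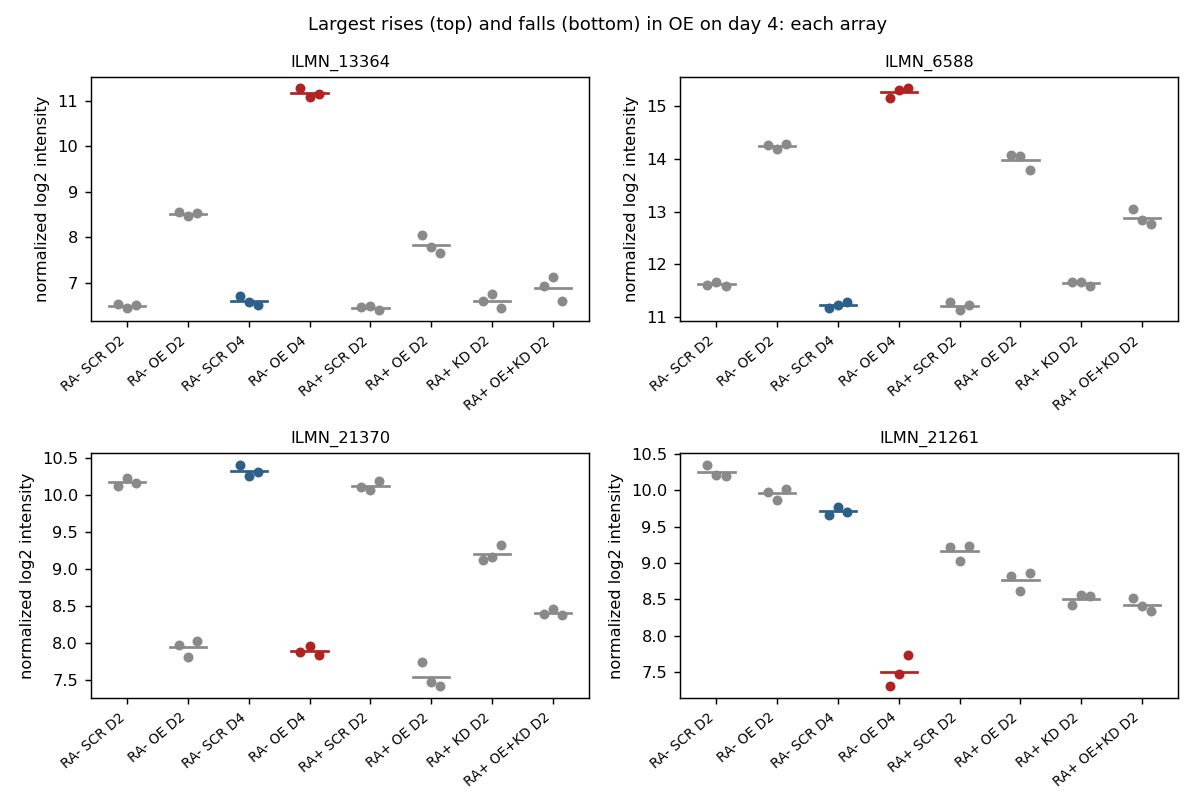
Normalized log2 intensity (vertical axes) of the 2 most raised and the 2 most lowered probes of day 4, on each of the 24 arrays, by group (horizontal axes). Points are arrays and lines are means of 3; OE on day 4 is red, scrambled on day 4 blue and the other groups grey. In OE cells ILMN_21370 stood at 7.94 ± 0.11 on day 2 and 7.89 ± 0.06 on day 4, whereas ILMN_21261 stood at 9.96 ± 0.08 and 7.501 ± 0.22.

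Probes chosen on the day 2 arrays could be read on day 4, since the comparisons have no array in common. Their calls are still not independent, since the model gave each probe the same SE on both days. For ILMN_13364 this SE was 0.111 log2. A probe with a small spread is easier to call on each day, which favours a high share of repeated calls. The same holds for the readings below. Without RA on day 2, 3357 probes were called (31.4%). Of the 53 probes (0.496%) that OE raised at least 2-fold there, 52 were called higher on day 4, 36 of them at least 2-fold, and 1 was called lower. All 97 probes (0.907%) lowered at least 2-fold on day 2 were called lower on day 4, 60 of them at least 2-fold. Among all tested probes 26.2% were called higher and 25.3% lower. The raised set had a median change of 1.15 log2 on day 2 and 1.22 on day 4, and the lowered set -1.15 and -1.07. The choice by large changes favours the day on which it was made, so similar medians here do not show equal effects. Chosen on day 4 instead, the probes raised at least 2-fold had medians of 1.19 log2 on day 4 and 0.72 on day 2 without RA. For the probes lowered at least 2-fold on day 4 the medians were -1.20 and -0.61 log2.

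Probes with smaller changes on day 2 were read in the same way, and small changes are harder to call. Of the 1612 raised under 2-fold, 72.8% were called higher on day 4 and 2.67% lower, with medians of 0.39 log2 on day 2 and 0.43 on day 4. Of the 1595 lowered under 2-fold, 73.0% were called lower and 20 probes higher. The 7334 probes not called on day 2 held 1555 called higher (21.2%) and 1398 called lower (19.1%) on day 4. Most of these calls were small: 10 of these probes rose and 69 fell at least 2-fold.

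The RA-treated cells of day 2 gave a similar reading from other arrays, on which 4243 probes were called (39.7%). That count was 2688 with only the groups compared in the fit, and the OE arrays with RA were variable, with residual SDs of 0.138, 0.162 and 0.226 log2. Of the 88 probes (0.823%) that OE raised at least 2-fold there, 86 were called higher on day 4, and of the 120 it lowered (1.12%), 115 were called lower and 0 higher. The medians were 1.24 log2 with RA and 1.01 on day 4 for the raised set, and -1.15 and -0.995 for the lowered set. In probes called in the same direction in both day 2 comparisons, 1027 of 1290 raised probes were called higher on day 4 (79.6%) and 1098 of 1330 lowered probes were called lower (82.6%). The 2 sets of day 2 arrays differ in RA and share no array with each other, but their calls share the estimate of spread.

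The large changes of day 4 read backwards did not divide evenly. Of the 151 probes raised at least 2-fold, 136 were called higher in both OE comparisons of day 2, where 15.6% of all tested probes were called higher without RA and 19.8% with it. A further 5 were called without RA alone and 9 with RA alone, which left 1. Of the 224 probes lowered at least 2-fold, 145 were called lower in both, against 15.8% and 19.8% of all probes, 8 without RA alone, 17 with RA alone, and 54 in neither. The imbalance of 54 against 1 was 50 against 7 with median scaling. It was 10 against 1 with the stricter filter on dim probes, 189 against 62 without background correction, 210 against 64 in the authors' normalized intensities, and between 38 and 70 against 1 or 2 without any single day 4 array. These counts were chosen after the data were seen, and a missing call on day 2 does not by itself show that the effect differed.

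Among the 54 lowered probes without a lower call in the day 2 comparisons, 51 had no call there and 2 were called higher without RA. The 54 were chosen by a large fall on day 4 and that lack of a lower call, so their levels are a description. Their median over probes was 8.52, 8.82 and 8.87 log2 on the scrambled arrays of day 4, 8.68, 8.64 and 8.74 on the OE arrays of day 2, and 7.19, 7.48 and 7.71 on the OE arrays of day 4. The OE cells of day 4 alone were low, and their 3 arrays lay further apart than those of the other groups without RA. In the 12 arrays with RA the median was between 8.13 and 8.54. Their median change was 0.01 log2 on day 2 without RA and -0.05 with RA, against -1.16 on day 4, and the choice used all 3 comparisons. The difference between the days was called lower at 53 of the 54, and at 87 of the other 170 lowered probes. It was called higher at 89 of the 151 probes raised at least 2-fold on day 4. The choice by a large change on day 4 favours these counts.

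These probes were also noisy ones. In the 7 groups other than OE on day 4, 35 of the 54 (64.8%) had a replicate SD above the 75th percentile of all tested probes, against 43 of the 170 (25.3%) lowered probes called in a day 2 comparison and 46 of the 151 raised probes (30.5%). The median SD in those groups was 0.178 log2 for the 54 and 0.124 for all tested probes. In the OE arrays of day 4 it was 0.281 and 0.120. A larger spread makes a call in any comparison harder to reach, so a choice by missing lower calls on day 2 favours noisy probes. The part of the spread in those missing calls was not tested. The 170 other lowered probes were brighter, with a median of 10.07 log2 in control cells of day 4 against 8.77 for the 54.

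**Figure D3:**
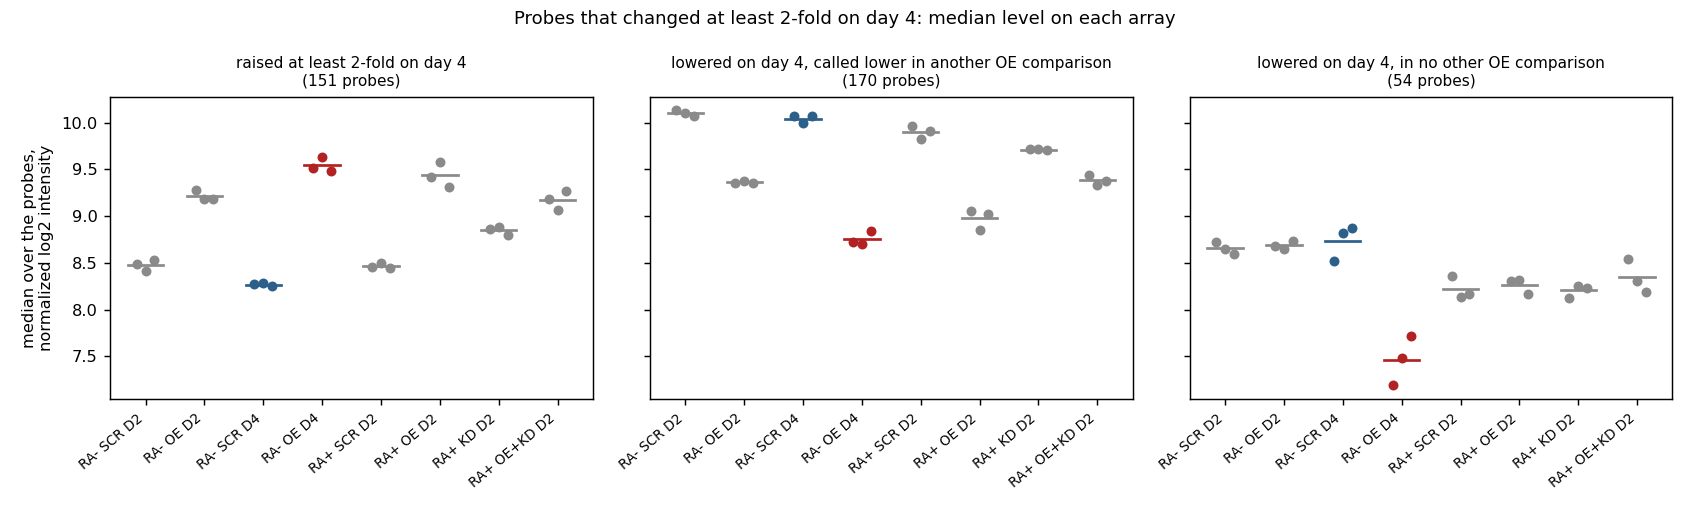
Median normalized log2 intensity over the probes of 3 sets (vertical axis) on each of the 24 arrays, by group (horizontal axes): 151 probes raised at least 2-fold on day 4, 170 lowered probes also called lower in an OE comparison of day 2, and 54 lowered probes called lower in none. Points are arrays and lines are means of 3. The first 2 sets are displaced in every OE group, and the 54 stand low on the OE arrays of day 4 alone, at 7.19 to 7.71. The calls that define the 170 and the 54 favour their patterns.

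The test of the difference itself asked whether the OE effect of day 4 differed from that of day 2. It was called at 1373 probes (12.8%), 626 positive (5.86%) and 747 negative (6.99%) by limma. With the replicate number as a block 1011 were positive and 977 negative, and with array weights 1227 and 1180, so the balance of signs depends on the fit. At 708 of them the effects had the same sign and were larger on day 4, at 80 smaller, and at 585 they had opposite signs. Among all 10691 tested probes the numbers were 5273, 2657 and 2761 in the same order. Large differences were mostly negative, with 20 at or above 1 log2 (0.187%) and 90 at or below -1 (0.842%). With median scaling the count was 2278 and 82.6% of the differences were positive in place of 45.6%, as the median of all tested probes moved to 0.20 log2, but 61 large differences were still negative and 42 positive. Of the 90 negative ones, 75.6% had a residual SD above the 75th percentile of all tested probes. That share was 10% of the 20 positive ones and 21.0% of all 1373. The residual SD includes the OE arrays of day 4, which also enter the differences.

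**Figure D4:**
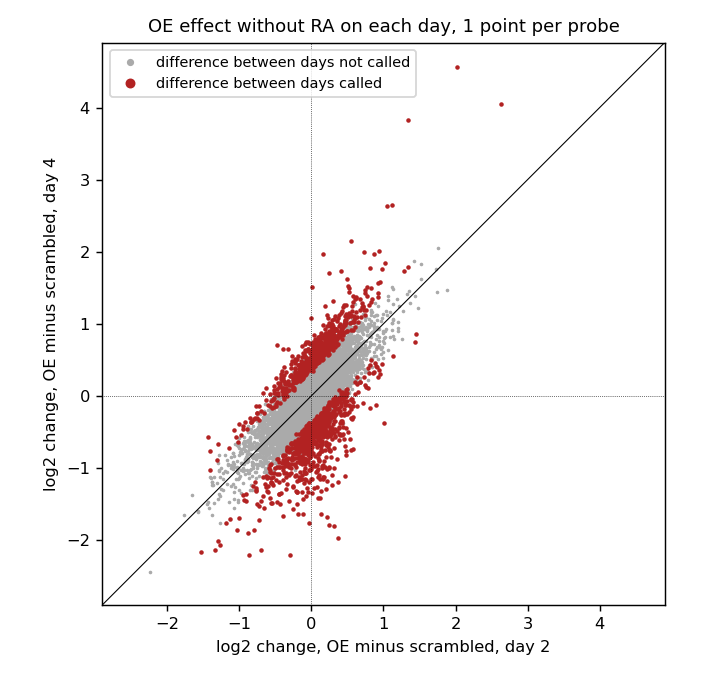
Change in OE against scrambled cells without RA on day 4 (vertical axis, log2) against the change on day 2 (horizontal axis, log2), 1 point per tested probe. Red points are the 1373 probes at which the difference between the days was called, and the line marks equal change. The column of red points under 0 near the middle of the horizontal axis holds probes lowered on day 4 with little change on day 2.

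Single probes showed on which side the days parted. At ILMN_13364 the OE effect was larger on the later day by 2.54 log2 (SE 0.158, limma adjusted p = 9.79e-11). Its control level was 6.50 ± 0.04 log2 on day 2 and 6.60 ± 0.10 on day 4, while its level in OE cells went from 8.52 ± 0.04 to 11.17 ± 0.10 (SD, n = 3 each). The change between the days thus lay in the OE arrays. With RA the OE arrays stood at 8.06, 7.78 and 7.67 and the scrambled arrays at 6.48, 6.51 and 6.41.

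ILMN_2335 had the next largest positive difference, 2.49 log2 (SE 0.157, limma adjusted p = 9.79e-11). Its normalized level was 9.46, 9.20 and 9.19 on the OE arrays of day 2 and 12.35, 12.08 and 12.25 on those of day 4. The scrambled arrays were at 7.95, 7.84 and 8.03 on day 2 and at 8.36, 8.29 and 8.54 on day 4, a rise of 0.46 log2 (limma adjusted p = 0.00709). The OE arrays rose by 2.94 log2 over the same time (limma adjusted p = 1.13e-15). With RA the OE effect on this probe was 0.41 log2 (limma adjusted p = 0.00504), from arrays of day 2 only.

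The largest negative difference was that of ILMN_28251, -2.35 log2 (SE 0.270, limma adjusted p = 2.98e-06). On the OE arrays its normalized level was 10.49, 10.77 and 10.74 on day 2 and 7.71, 7.93 and 8.91 on day 4. Replicate 3 of the day 4 arrays stood apart from the others, and leaving it out moved the day 4 change from -1.97 to -2.33 log2. The SD of the OE arrays was 0.64 log2 on day 4 against 0.16 on day 2. The pooled spread behind the p-value is smaller than that of the OE arrays of day 4. Scrambled arrays lay at 10.33, 10.27 and 10.28 on day 2 and at 10.02, 10.28 and 10.16 on day 4. ILMN_16109 followed with -2.12 log2 (SE 0.189, limma adjusted p = 4.40e-08). It stood at 8.55, 8.57 and 8.72 on the OE arrays of day 2 and at 6.35, 6.79 and 7.01 on those of day 4, where its scanner intensities were 4.8, 37.7 and 60.8, near the low end. Its day 4 change was -1.80 log2, and -3.23 without background correction. For both probes the OE effect was not called on day 2 with or without RA.

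By contrast, ILMN_21370 had a large fall already on day 2. Its OE effect was -2.24 log2 on day 2, -2.44 on day 4 and -2.58 with RA on day 2. The difference between the days was -0.20 log2 (SE 0.123, limma adjusted p = 0.294) and was not called, which does not show equal effects. ILMN_21261 was the reverse case, with an OE effect of -0.30 log2 on day 2 (limma adjusted p = 0.0208), -0.39 with RA (limma adjusted p = 0.00211) and -2.21 on day 4. It also fell by 0.54 on the log2 scale in scrambled cells between the days (limma adjusted p = 0.000518).

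**Figure D5:**
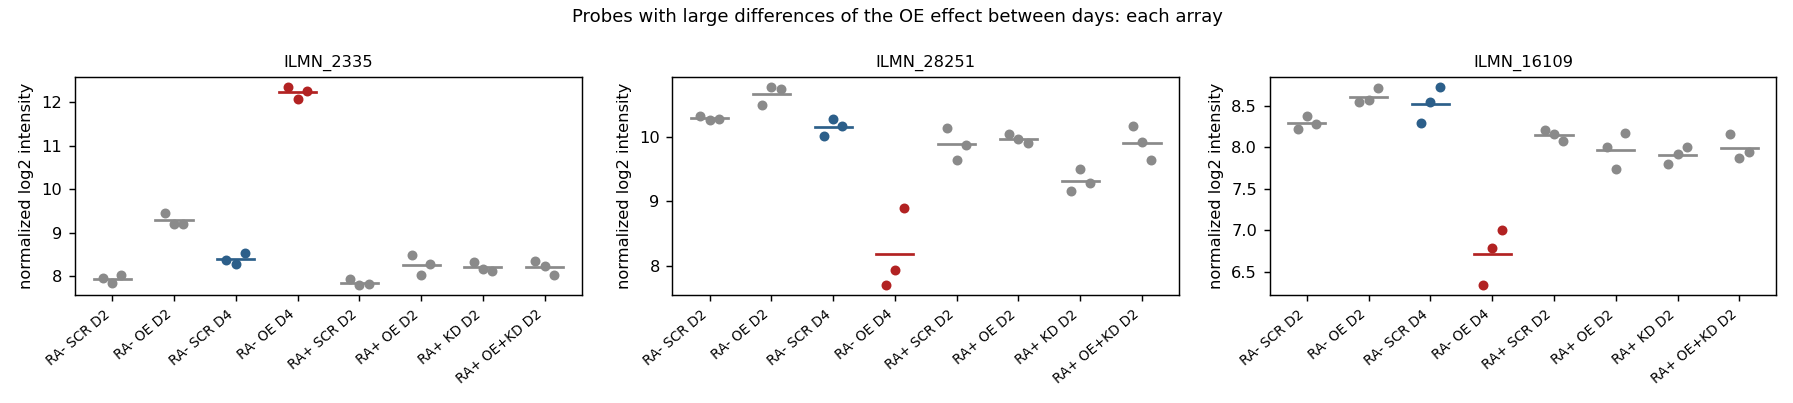
Normalized log2 intensity (vertical axes) of 3 further probes named for the difference between the days or for the change of OE cells between them, on each of the 24 arrays, by group (horizontal axes). Points are arrays and lines are means of 3; OE on day 4 is red and scrambled on day 4 blue. ILMN_2335 is high and the other two are low on the OE arrays of day 4.

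Over all probes, OE cells changed between day 2 and day 4 at 2836 probes (26.5%), 1418 higher (13.3%) and 1418 lower (13.3%), and scrambled cells at 1315 (12.3%), 619 higher (5.79%) and 696 lower (6.51%). At least 2-fold, 8 probes rose (0.0748%) and 73 fell (0.683%) in OE cells. In scrambled cells 5 rose (0.0468%) and 7 fell (0.0655%). The first 2 risers were ILMN_2335 and ILMN_13364 and the first 2 fallers ILMN_28251 and ILMN_21261, with -2.49 and -2.46 log2. Median scaling changed the OE split to 79.8% higher in place of an even split and the scrambled split to 30.4% in place of 47.1%, and the large changes of OE cells to 25 rises and 64 falls. With array weights the counts were 3207 in OE and 3240 in scrambled cells, and with only the groups compared in the fit 2674 and 2261, so the larger count in OE cells depends on the fit. These comparisons share the day 4 arrays with the OE effect of day 4, so their counts are given side by side only.

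The authors' deposited table of log2 fold changes lists this comparison too. In the authors' deposited table, 353 of the 20589 probes stand at 1 or above and 619 at -1 or below on day 4, against 182 and 273 on day 2, and 5866 are exactly 0 on day 4. Of the probes called here, 99.5% have the same sign in the authors' deposited table. For ILMN_6588 the authors' deposited table gives 3.75, for ILMN_2335 4.46, for ILMN_21370 -3.00 and for ILMN_21261 -3.40, the lowest of all its day 4 values. Means of the authors' normalized intensities on the log2 scale differed from the authors' deposited table by 0.07 on average and by up to 1.21, so how it was computed is not known here.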

How the data were processed

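Trizol and RNeasy kits gave the total RNA, and it carried a biotin label, per the labels' protocols. The authors deposited linear scanner intensity for 20589 probes on 24 arrays, already background-subtracted in a way the sources used here do not give, intensity they had normalized, with a lowest value of 20, and log2 fold changes, log2 per the file headers. Arrays were grouped by title.

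From the scanner values, limma 3.58.1 (R 4.3.3) applied normexp with an offset of 50 and quantile normalization, followed by log2. This offset makes the changes of dim probes smaller. Of all probes, 10691 exceeded the array median in every replicate of 1 or more groups and were tested. One model with 8 group means gave all comparisons (16 residual degrees of freedom), with Benjamini-Hochberg adjustment over the probes tested. The number of arrays limits precision. Identical arrays were looked for (0 pairs). Python 3.11.15 with matplotlib 3.10.9, pandas 2.3.3 and NumPy 2.4.6 made the plots. The fit was also tested on simulated data.

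The rule for naming took the 2 largest rises and 2 largest falls on day 4 (called, replicates not overlapping), and the same for the difference between days and for day 4 against day 2 in OE cells. Because no table pairs probes with genes, 18 gene lists, markers among them, were not used. The comparison, rules and lists were chosen with earlier results of these data known.

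Replicate numbers come from the titles. Arrays of the same number deviated together in every pair (r of 0.133 to 0.264 in OE and scrambled of day 4, and 0.133 to 0.518 over the 18 pairs of the 4 groups without RA), so the numbers were taken to pair the arrays. The model has no replicate block, and the blocked counts are in the closing section.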

Additional observations from a re-analysis of the deposited data

Results flagged for a closer look

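The OE effect without RA differed between day 4 and day 2, by the test of the difference itself, at 1373 probes. The 4 differences named were 2.54 log2 for ILMN_13364, 2.49 for ILMN_2335, -2.35 for ILMN_28251 and -2.12 for ILMN_16109. ILMN_13364 and ILMN_2335 were higher in OE cells on both days, and more so on day 4. ILMN_28251 and ILMN_16109 were lower in OE cells on day 4, and their effects on day 2, 0.38 and 0.32 log2, were not called (limma adjusted p = 0.143 and 0.0750). Without any 1 of the 12 arrays the count was 931 to 1553. Groups of 3 arrays were not searched for single outlying arrays.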

How the results depend on the processing

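The day 4 changes of the 7 named probes kept their direction and their call in all 104 values under the alternatives and with 1 array left out. ILMN_16109 was not tested under the stricter filter on dim probes. The stricter filter (upper quartile in place of median) leaves fewer probes to call: it gave 3189 calls for OE on day 4, 318 beyond 1.5-fold, 699 for the difference between days, 2105 for OE on day 2, 2605 for OE with RA and 1580 for OE cells between days. Beyond 1.5-fold, 873 probes passed without background correction and 961 in the authors' normalized intensities. The difference between days was called at 2278 probes with median scaling and 2407 with array weights. Array weights gave 3240 for scrambled cells between days, beside 3207 for OE cells. Fitting only the groups compared gave 2261 and 2674 for these, and 2688 for OE with RA. Where no construction is named, the cause was not tested. Median scaling put the share of higher calls at 64.6% beyond 1.5-fold in place of 44.0%, and at 36.1% for OE on day 2 in place of 49.6%.

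Leaving out 1 array gave 4825 to 5225 calls for OE on day 4, 389 to 495 beyond 1.5-fold, 931 to 1553 for the difference, 2676 to 2824 for OE on day 2, 3508 to 4292 for OE with RA, 2043 to 2698 for OE cells between days and 884 to 990 for scrambled cells between days.

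With the replicate number as a block (paired arrays) the counts were 6037 for OE on day 4, 557 beyond 1.5-fold, 1988 for the difference (1011 positive, 977 negative), 3916 for OE on day 2, 4842 for OE with RA, 3560 for OE cells and 1924 for scrambled cells between days. No call of a named probe on day 4 changed. Dim probes have no detection values here, which limits folds such as that of ILMN_13364.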

Other observations

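The probes that day 4 chose can be read in the RA-treated arrays, which are not among the groups compared on day 4. Those arrays did enter the filter, the quantile normalization and the estimate of spread behind the calls. The 151 raised probes had a median level of 8.453, 8.501 and 8.441 log2 on the scrambled arrays with RA, 8.87, 8.88 and 8.80 with KD, 9.18, 9.06 and 9.27 with OE+KD, and 9.42, 9.58 and 9.31 with OE. KD arrays thus lay above scrambled ones, on the same side as OE. The 170 lowered probes with a call in an OE comparison of day 2, which in part used these arrays, stood at 9.96, 9.83 and 9.91 with scrambled, 9.72, 9.72 and 9.71 with KD, 9.44, 9.33 and 9.38 with OE+KD, and 9.06, 8.85 and 9.02 with OE. These sets were formed after the data were seen, and their levels are descriptions.

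ILMN_21370 had its levels in RA-treated cells in the order of the 170 probes, with OE lowest at 7.54 ± 0.17 log2, then OE+KD at 8.40 ± 0.05, KD at 9.20 ± 0.11 and scrambled arrays highest at 10.12 ± 0.06 (SD, n = 3 each). The means of ILMN_13364 were in the order of the 151 probes, OE being highest at 7.84 ± 0.21, then OE+KD at 6.89 ± 0.27, KD at 6.60 ± 0.16 and the scrambled arrays at 6.46 ± 0.05, but its KD arrays overlapped its scrambled arrays.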
